A study of Mus musculus with 12 samples.

Results

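Axons of olfactory neurons that express the same odorant receptor gather in the same glomeruli of the olfactory bulb. Adhesion molecules and guidance cues on the axon surface sort them locally, and their levels differ between neurons according to the receptor expressed and to neuronal activity. The homophilic adhesion proteins Kirrel2 and Kirrel3 are known to mark complementary sets of axons, as are the EphA5 receptor and the ephrin-A5 ligand. Kirrel2 and EphA5 are known to rise with activity, and Kirrel3 and ephrin-A5 to fall with it. A mixture of all neurons, as in whole epithelium, averages over this mosaic.

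The genes described here are Kirrel2, Kirrel3, Efna3, Efna5, Epha5, Pcdh10, Cntn4, Sema7a and Ncam2. They were taken by gene symbol from the platform annotation, and each had a single probe set, so that they are 9 of 28944 experimental probe sets and 9 of 19938 gene symbols named by a probe set of a single gene. RNA came from freshly dissected whole main olfactory epithelium (MOE) of mice aged 6 months and was read on Affymetrix Mouse Gene 1.0 ST arrays, with 6 arrays for each genotype and a pair of animals per array. WT mice carry intact H2be, a histone H2B variant gene of olfactory neurons. In H2be-KO mice the coding sequence of H2be was replaced by a membrane-targeted Gap43-mCherry reporter, in a line set up from founders crossed to C57Bl/6. Both sexes were used. In both genotypes replicates 1 to 3 read the X-inactivation transcript Xist at 11.39 to 11.67 on the log2 scale, and replicates 4 to 6 at 0.00 to 3.89.

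Signals are log2 values normalized across arrays, and all differences are H2be-KO minus WT on that scale. Means are given ± SD over the 6 arrays of a genotype, and in limma, which was fitted over all probe sets, a call is an unadjusted p under 0.05. The H2be probe set (symbol H2bc21) read 11.51 to 11.84 in H2be-KO and 11.63 to 12.12 in WT. The position of its probes relative to the replaced sequence was not analysed here, so it does not check the genotype. Omp, the classical marker of mature olfactory neurons, read 12.90 ± 0.07 in both genotypes. The enamel gene Amelx read 11.87 and 11.66 in H2be-KO replicates 1 and 6 and 5.11 to 6.03 on the other arrays. Fewer cells of a type and less RNA per cell cannot be told apart in such tissue.

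All 9 genes were measured well above the mean log2 level of 5 that was required for testing, and all were kept. Between genotypes they differed little. The differences ran from -0.17 for Kirrel3 to 0.18 for Pcdh10, 4 of the 9 were positive and 5 negative, and their median was -0.04 against 0.023 over the 28151 probe sets tested. At an unadjusted limma p under 0.05, 1 gene was lower in H2be-KO (Kirrel3) and 0 were higher, where 5.55% of all tested probe sets were called, 1.77% lower and 3.78% higher. Of all differences 56.2% were positive. These calls were 1065 higher and 498 lower as deposited, but 827 higher and 899 lower after quantile normalization. After adjustment over all probe sets in limma, 0 of the 9 genes and 0 of all probe sets were below 0.05, and the smallest adjusted p among the 9 genes was 0.753.

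**Figure D1:**
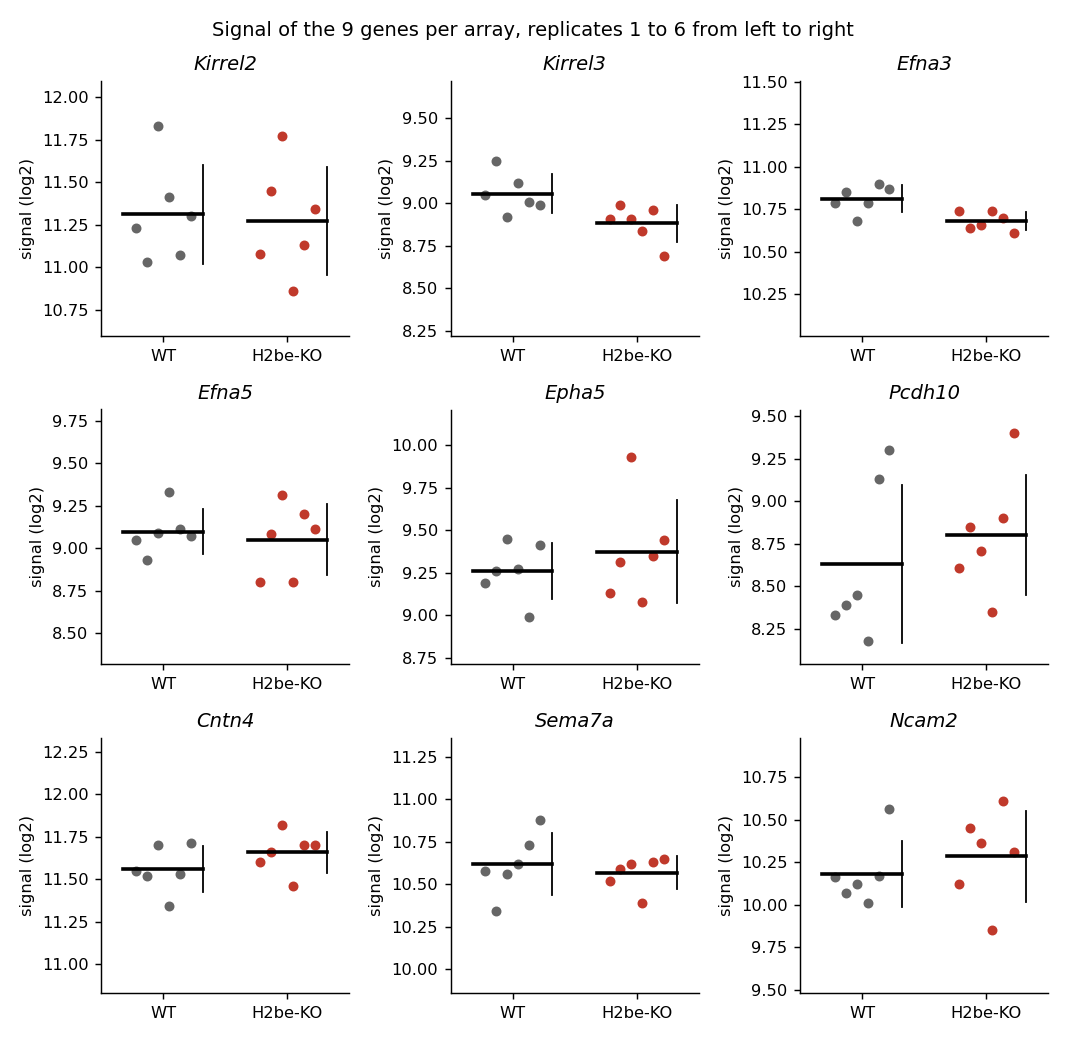
Signal (log2) of each of the 9 genes in WT (grey) and H2be-KO (red), 1 point per array in the order of replicates 1 to 6, where a thick bar marks the mean and the thin bar 1 SD to each side. Every panel spans the same height on the log2 scale. The genotypes overlap for all 9 genes, and 4 of 6 H2be-KO arrays lie below every WT array for Kirrel3.

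Kirrel3, a homophilic adhesion protein of the immunoglobulin superfamily, had the smallest limma p of the 9 genes, and it tied with Efna3 in the exact permutation test. Its signal in H2be-KO had a lowest value of 8.69, a median of 8.91 and a highest value of 8.99, and in WT 8.92, 9.03 and 9.25. All 6 H2be-KO arrays lay below the WT mean and 4 of them lay below every WT array, yet the groups overlapped. Non-overlapping groups were seen for 0.178% of tested probe sets. Kirrel3 was lower by a difference of -0.17 with a standard error of 0.08 (limma p = 0.0493, adjusted p = 0.753, exact permutation p = 0.013). The call ended without H2be-KO replicates 1, 3, 4, 5 or 6 or WT replicates 1, 2, 4 or 5, each left out in turn, with limma p between 0.0507 and 0.126. It also ended without both Amelx-high arrays (-0.13) and with the mean signal of Y-linked genes as a covariate (-0.17). In these fits limma p lay between 0.052 and 0.18, the lower value with the covariate, where the difference was unchanged. Their limma adjusted p was 0.848 and 0.749, against 0.753 in the reported fit.

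Kirrel2, its relative with the opposite dependence on activity, read 10.86, 11.24 and 11.77 in H2be-KO and 11.03, 11.26 and 11.83 in WT (lowest, median and highest). The highest array of each genotype was replicate 3. The groups covered nearly the same range and the difference was -0.04, with a 95% interval from -0.37 to 0.30 (adjusted p = 0.947 in limma, exact permutation p = 0.814). Its sign turned with array weights and when H2be-KO replicate 4 or WT replicate 3 was left out. The balance of the pair was followed as the per-array log2 ratio of Kirrel2 to Kirrel3. It came to 2.39 ± 0.32 for H2be-KO against 2.26 ± 0.37 for WT. The groups overlapped, and the difference of 0.13 did not exceed the SD of either genotype (exact permutation p = 0.522). The family's other members on the array, Kirrel and the podocyte gene Nphs1, held 0 calls in 3 probe sets, and Kirrel read 9.55 ± 0.16 in H2be-KO and 9.54 ± 0.24 in WT.

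Ephrins of the A type are ligands held in the membrane by a lipid anchor, and EphA proteins are their receptor tyrosine kinases. Efna3 read 10.61, 10.68 and 10.74 in H2be-KO and 10.68, 10.82 and 10.90 in WT (lowest, median and highest). All 6 H2be-KO arrays were below the WT mean and 3 were below every WT array. The difference was -0.13 with a standard error of 0.07. Limma did not call it (p = 0.0853, adjusted p = 0.753), while the exact permutation test, which uses the gene's own spread alone, gave p = 0.013. By that test 2 of the 9 genes, Kirrel3 and Efna3, were lower and 0 higher, where 2.03% of tested probe sets were called lower and 3.98% higher. The residual SD of Efna3 over arrays was 0.0682, and 0.59% of tested probe sets had a smaller one. For Kirrel3 it was 0.111, with 7.87% smaller. Limma moderates such small spreads towards those of the other probe sets. Limma called Efna3 lower after quantile normalization (-0.17) and with array weights (-0.14), with limma p between 0.0327 and 0.0357. Neither passed after adjustment (limma adjusted p = 0.734 and 0.328).

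Efna5, the ligand with a complementary axonal pattern to Epha5, read 8.80, 9.10 and 9.31 in H2be-KO and 8.93, 9.08 and 9.33 in WT. Its lowest signals were those of H2be-KO replicates 1 and 4. The difference was -0.05, with a 95% interval from -0.27 to 0.17 (adjusted p = 0.895 in limma, exact permutation p = 0.632), and its sign turned without H2be-KO replicate 1 or 4, without both Amelx-high arrays and with array weights. Epha5 itself read 9.08, 9.33 and 9.93 in H2be-KO and 8.99, 9.26 and 9.45 in WT. H2be-KO replicate 3 alone stood above every WT array, and without it the difference went from 0.11 to 0.001. With all arrays its 95% interval was -0.17 to 0.39 (adjusted p = 0.817 in limma, exact permutation p = 0.5). The log2 ratio of Epha5 to Efna5 averaged 0.33 ± 0.16 for H2be-KO and 0.17 ± 0.22 for WT. The arrays ran from 0.16 to 0.62 and from -0.12 to 0.37, and the test did not separate the genotypes (difference 0.16, exact permutation p = 0.195).

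The wider Eph and ephrin family gave no call. Of 15 probe sets for A-type ephrins and EphA receptors, the 3 members included, 0 were higher and 0 lower, 10 had a negative difference, and the median was -0.05. Of 8 probe sets for B-type ephrins and EphB receptors, 7 had a negative difference, and the median was -0.14. Efnb1, a ligand of EphB receptors, read 7.56 ± 0.17 in H2be-KO and 7.70 ± 0.22 in WT (adjusted p = 0.762 in limma, exact permutation p = 0.253).

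**Figure D2:**
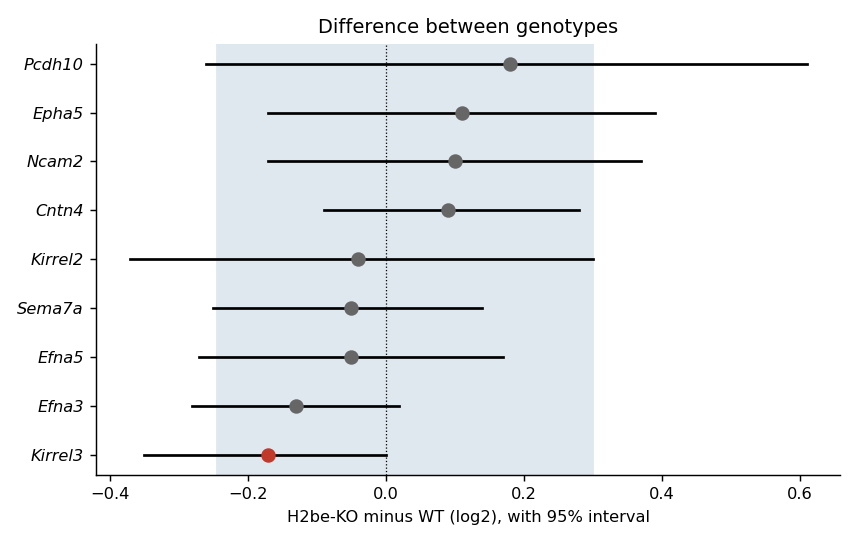
Difference between genotypes (H2be-KO minus WT, log2) for each of the 9 genes, with limma's 95% interval as a line. The shaded band holds the central 95% of the differences of all tested probe sets, from -0.25 to 0.30. The red point is Kirrel3, the gene with an unadjusted limma p under 0.05, and all 9 points lie inside the band.

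Pcdh10, a non-clustered protocadherin expressed in olfactory neurons according to their receptor, varied most between arrays. Its residual SD of 0.412 exceeded that of 96.1% of tested probe sets, where the median was 0.198. It read 8.35, 8.78 and 9.40 in H2be-KO and 8.18, 8.42 and 9.30 in WT (lowest, median and highest). In WT, replicates 5 and 6 read 9.13 and 9.30 while the remaining 4 arrays read 8.18 to 8.45, and in H2be-KO replicate 6 was the highest. The difference of 0.18 had a 95% interval from -0.26 to 0.61 (adjusted p = 0.816 in limma, exact permutation p = 0.461), and it was 0.076 without both Amelx-high arrays. With single arrays left out it ran from 0.056 without H2be-KO replicate 6 to 0.31 without WT replicate 6. Of 11 probe sets for non-clustered protocadherins, 1 was higher and 0 lower. This was Pcdh11x, an X-linked protocadherin, which read 7.63 ± 0.14 in H2be-KO and 7.39 ± 0.18 in WT (limma p = 0.0238, adjusted p = 0.753, exact permutation p = 0.0368). The difference was negative for 8 of the 11.

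Cntn4 encodes a lipid-anchored contactin that takes part in the sorting of olfactory axons. It read 11.46, 11.68 and 11.82 in H2be-KO and 11.34, 11.54 and 11.71 in WT. Of the 6 H2be-KO arrays, 5 lay above the WT mean, but 1 of them lay above every WT array, and the difference of 0.09 had a 95% interval from -0.09 to 0.28 (adjusted p = 0.775 in limma, exact permutation p = 0.236). It ran from 0.051 without WT replicate 4 to 0.134 without H2be-KO replicate 4. None of the 6 contactin probe sets was called. Cntn1 read 6.99 ± 0.34 in H2be-KO and 6.70 ± 0.25 in WT (adjusted p = 0.753 in limma, exact permutation p = 0.139).

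Sema7a encodes a lipid-anchored semaphorin carried by olfactory axons, whose receptors are plexin C1 and integrins. It read 10.39, 10.60 and 10.65 in H2be-KO and 10.34, 10.60 and 10.88 in WT. Every H2be-KO value lay within the WT range, and the difference was -0.05, with a 95% interval from -0.25 to 0.14 (adjusted p = 0.87 in limma, exact permutation p = 0.556). The difference was -0.001 without WT replicate 6 and -0.108 without WT replicate 2. None of the 3 receptor genes was called, and Plxnc1 read 6.44 ± 0.33 in H2be-KO and 6.43 ± 0.19 in WT.

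Ncam2, a neural cell adhesion molecule that is restricted to part of the olfactory map, read 9.85, 10.34 and 10.61 in H2be-KO and 10.01, 10.14 and 10.56 in WT. The H2be-KO arrays reached both below and above the WT range. The difference of 0.10 had a 95% interval from -0.17 to 0.37 (adjusted p = 0.822 in limma, exact permutation p = 0.457). Its more widely expressed relative Ncam1 read 11.17 ± 0.11 in H2be-KO and 11.28 ± 0.14 in WT (adjusted p = 0.761 in limma, exact permutation p = 0.16).

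Genes that steer olfactory axons at longer range were compared in the same way. Of 16 probe sets, 0 were higher and 1 was lower, that of the repulsive ligand Sema3f, which read 8.57 ± 0.10 in H2be-KO and 8.77 ± 0.15 in WT (limma p = 0.0313, adjusted p = 0.753, exact permutation p = 0.0152). The coreceptor Nrp1 and its ligand Sema3a, which are known to respond to cAMP in opposite ways, gave differences of 0.12 and 0.06 (exact permutation p = 0.47 and 0.537). Of 16 probe sets for the olfactory cAMP cascade, a list that also holds the receptor trafficking genes Rtp1 and Rtp2, 0 were called. Together the 58 probe sets of the families and guidance genes besides the 9 genes held 1 higher and 1 lower call (1.72% each), with a median difference of -0.05.

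Markers of cell types were read beside these results. Of 15 probe sets for mature olfactory neurons 0 were called, and their summed signal was 15.31 to 15.56 in H2be-KO and 15.40 to 15.46 in WT. Of 12 for immature neurons 1 was higher, that of Gap43 (10.24 ± 0.20 against 9.99 ± 0.17, limma p = 0.0336, exact permutation p = 0.0455). The reporter carries a part of the Gap43 sequence, and any share it has in this signal was not tested. Of 7 for horizontal basal cells all were negative and 1 was called lower, the integrin gene Itgb4 (difference -0.26, limma p = 0.0327, exact permutation p = 0.0325). Their summed signal was 11.44 to 11.84 in H2be-KO and 11.58 to 12.10 in WT, with the defining markers Krt5 at 10.35 and 10.48 and Trp63 at 8.22 and 8.28. Larger differences were those of Krt14, at 8.62 and 8.87, and Krt15, at 7.02 and 7.46 (exact permutation p = 0.0779 and 0.429). The remaining calls were higher signals of Top2a among 9 progenitor probe sets, Fabp7 among 8 of ensheathing glia and Lum among 10 of stroma and endothelium. Their limma p was 0.0495, 0.0354 and 0.0409, and their exact permutation p 0.0801, 0.0303 and 0.00866, so that test did not call Top2a. A second Top2a probe set, at 4.68 in H2be-KO and 4.45 in WT, lay below the level required for testing. There were 0 calls among 10 sustentacular, 8 immune and 7 tooth and bone probe sets. The 78 probe sets of the cell-type lists, tooth and bone apart, held 4 higher calls (5.13%) and 1 lower (1.28%). Over all tested probe sets the shares were 3.78% and 1.77%. The limma adjusted p was 0.753 for each of the 5 called marker genes. None of these 5 marker calls held without both Amelx-high arrays, where the differences were 0.20 for Gap43, 0.29 for Top2a, 0.18 for Fabp7, 0.25 for Lum and -0.28 for Itgb4. After quantile normalization the calls of Gap43, Fabp7 and Lum ended, and after centring each array on its median those of Top2a, Fabp7 and Lum. The calls of Pcdh11x and Sema3f held under all 3 of these alternatives, but not with every single array left out. That of Pcdh11x ended without H2be-KO replicate 3 or WT replicate 1 or 5 (limma p between 0.0504 and 0.0626). That of Sema3f ended without H2be-KO replicate 2 or 5 or WT replicate 4 (limma p between 0.0615 and 0.0712). The summed signal of the tooth and bone list was 11.07 to 12.57 in H2be-KO and 10.70 to 11.39 in WT. The part of these lists in the lower Kirrel3 signal was not tested.

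The second question was which of these genes varied together over the 12 arrays. Among the 36 pairs, 24 correlated positively and 12 negatively, with a median Pearson r of 0.22. In 8 pairs the permutation p was under 0.05, all with a positive r. None passed after adjustment over the 36 pairs by Pearson's r or by Spearman's rho, for which 10 pairs had an unadjusted p under 0.05. With Pearson's r, 7 pairs passed after adjustment once the Y-linked mean was regressed out, and 3 once values were centred within genotype. Not all strong relations were positive after such centring. Kirrel2 and Efna3 had an r of -0.49 over all arrays (permutation p = 0.108, adjusted p = 0.265) and of -0.78 with values centred within genotype. Their r was -0.68 over the H2be-KO arrays and -0.89 over the WT arrays. Without both Amelx-high arrays 6 pairs had an unadjusted p under 0.05, and Kirrel2 with Efna5 (r = 0.61) and Kirrel3 with Efna3 (r = 0.51) were no longer among them. The 12 arrays are shared by all pairs, and many other probe sets follow the same course. Cntn4 had an absolute r above 0.5 with 47.0% of all tested probe sets and Ncam2 with 36.3%, against 13.5% for Kirrel2 and 10.8% for Efna3.

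**Figure D3:**
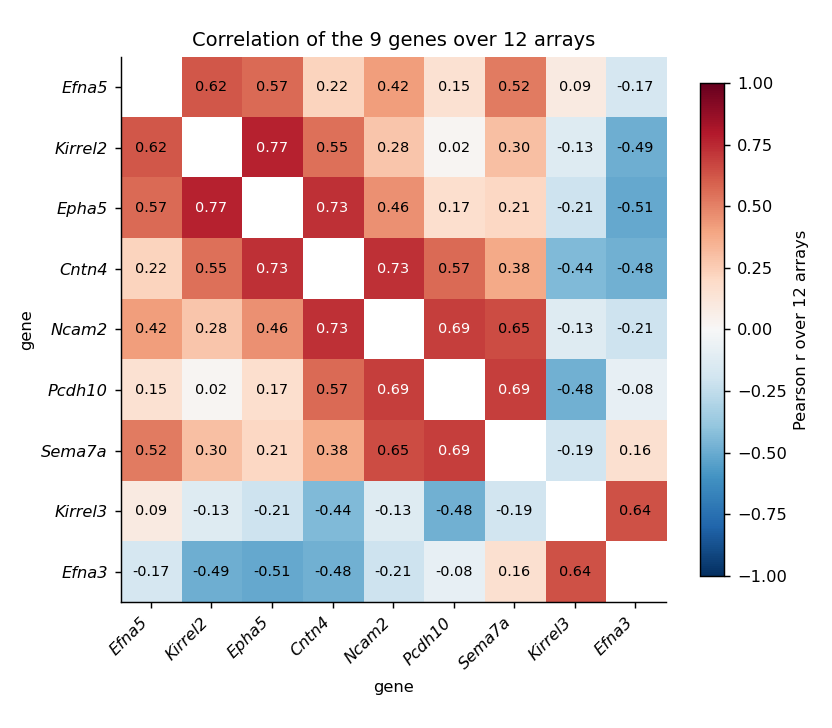
Pearson r over the 12 arrays for every pair of the 9 genes, placed in an order chosen after the values were seen. Red cells are positive and blue cells negative correlations. Kirrel2, Epha5 and Cntn4 adjoin each other near the top left, Ncam2, Pcdh10 and Sema7a in the middle, and Kirrel3 with Efna3 at the lower right is mostly negative towards the rest.

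Kirrel2 and Epha5, both known to rise with activity, formed the pair with the smallest p. Their r was 0.77 (permutation p = 0.00245, adjusted p = 0.0882) and their rho 0.80 (permutation p = 0.00258, adjusted p = 0.0563). Within genotypes r was 0.91 over the 6 H2be-KO arrays and 0.70 over the 6 WT arrays, without a test. It was 0.64 without H2be-KO replicate 3 and WT replicate 3, the arrays farthest from the Kirrel2 median, and 0.75 with the Y-linked signal regressed out. In all, 0.622% of tested probe sets correlated with Kirrel2 at least as strongly, and 2.33% with Epha5. The highest array for both genes was replicate 3 in each genotype, and with values centred within genotype and replicate number r was 0.38 (permutation p = 0.478).

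Of the complementary partners, Kirrel2 and Kirrel3 gave an r of -0.13 (permutation p = 0.677, adjusted p = 0.753) and a rho of -0.08 (permutation p = 0.8, adjusted p = 0.847). Over the H2be-KO arrays r was 0.15 and over the WT arrays -0.63, and whether these differ was not tested. It was 0.02 without replicate 3 of both genotypes. The lowest Kirrel3 array, H2be-KO replicate 6, stood mid-range for Kirrel2 at 11.34. Epha5 and Efna5 gave a positive r of 0.57 (permutation p = 0.0516, adjusted p = 0.186), which was 0.87 in H2be-KO and -0.06 in WT, and the difference between these was not tested. Efna5 also went with Kirrel2 (r = 0.62, permutation p = 0.0292, adjusted p = 0.132), and rho for that pair was 0.55 (permutation p = 0.0702, adjusted p = 0.211).

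**Figure D4:**
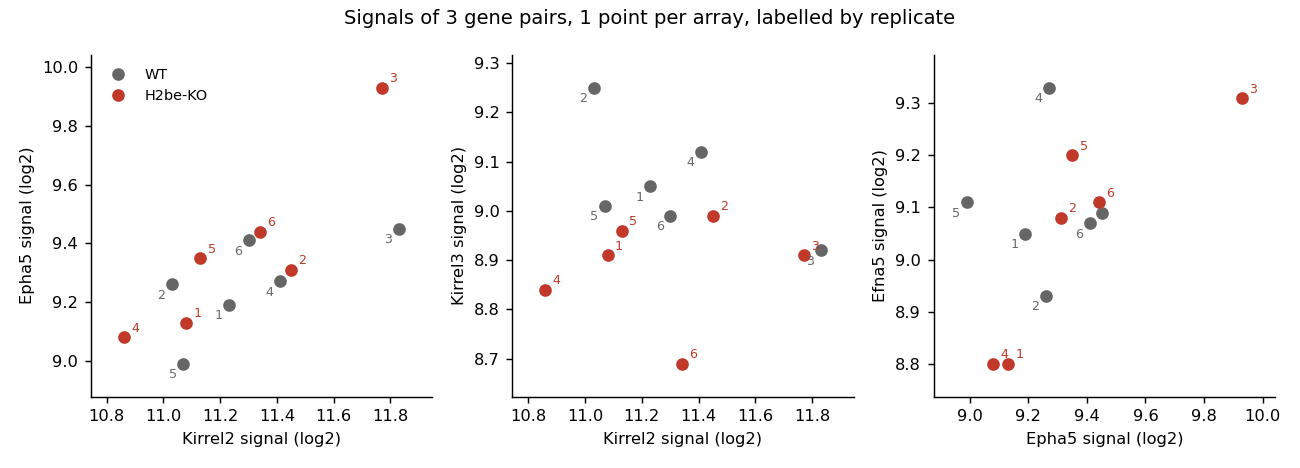
Signals (log2) of Kirrel2 against Epha5, Kirrel2 against Kirrel3 and Epha5 against Efna5, 1 point per array, labelled by replicate number, for WT (grey) and H2be-KO (red). Kirrel2 and Epha5 rise together (r = 0.77), with replicate 3 of both genotypes at the right, while for Kirrel2 and Kirrel3 r is -0.13 over all arrays.

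Of the 8 pairs, 4 were among Cntn4, Ncam2, Pcdh10 and Sema7a. Cntn4 and Ncam2 correlated at 0.73 (permutation p = 0.00635, adjusted p = 0.0932; rho = 0.73, permutation p = 0.00821, adjusted p = 0.0652), and at 0.79 without the arrays farthest from the Cntn4 median. However, 19.1% of tested probe sets correlated with Cntn4 at least as strongly. Pcdh10 correlated with Sema7a (r = 0.69, permutation p = 0.0122, adjusted p = 0.106) and with Ncam2 (r = 0.69, permutation p = 0.0152, adjusted p = 0.106), and Sema7a with Ncam2 (r = 0.65, permutation p = 0.0206, adjusted p = 0.106). The rho values were 0.73, 0.77 and 0.71 (permutation p = 0.00906, 0.00525 and 0.012, adjusted p = 0.0652, 0.063 and 0.072). Leaving out the 2 arrays farthest from the median of the first gene, r was 0.57, 0.66 and 0.54. With the first component of all probe sets regressed out, r was 0.52, 0.56 and 0.50, and none of these 3 pairs had a permutation p under 0.05. Pcdh10 and Ncam2 turned to an r of -0.09 with values centred within genotype and replicate number (permutation p = 0.894). With Ncam2, 14.3% of tested probe sets correlated at least as strongly as Pcdh10 and 18.2% as strongly as Sema7a. Cntn4 itself had a Pearson p above 0.05 with Pcdh10 (r = 0.57, permutation p = 0.0502, adjusted p = 0.186; rho = 0.60, permutation p = 0.0425, adjusted p = 0.17) and with Sema7a (r = 0.38, permutation p = 0.225, adjusted p = 0.405; rho = 0.45, permutation p = 0.139, adjusted p = 0.316).

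Epha5 and Cntn4 also correlated, with r = 0.73 (permutation p = 0.00777, adjusted p = 0.0932) and rho = 0.80 (permutation p = 0.00313, adjusted p = 0.0563), and r was 0.67 without the arrays farthest from the Epha5 median. It was 0.45 after quantile normalization (permutation p = 0.145) and 0.42 with values centred within genotype and replicate number (permutation p = 0.404), and 19.7% of tested probe sets correlated with Cntn4 at least as strongly. Kirrel3 and Efna3 were the remaining pair. Their r of 0.64 (permutation p = 0.0206, adjusted p = 0.106) and rho of 0.62 (permutation p = 0.0343, adjusted p = 0.169) came down to an r of 0.34 once each genotype was centred on its own mean. It was 0.40 without the 2 arrays farthest from the Kirrel3 median. Other alternatives raised r, to 0.77 after quantile normalization (permutation p = 0.00234) and to 0.75 with the Y-linked mean regressed out (permutation p = 0.00457).

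The promoters of the 9 genes were read for motifs. RefSeq (GRCm38.p6) gave windows for 8 of the 9 genes, in 10 windows, and the 250 bases before each start were searched on both strands. Searched were TAATTA, the core that homeodomain proteins such as the olfactory factor Lhx2 bind, TGACGTCA and its part TGACG, which cAMP-responsive factors bind, and CCCNNGGG, the core of sites for Ebf factors. TAATTA was in 2 of the 10 windows, that of Epha5 and 1 of the 2 windows of Cntn4, and in 4.84% of all 32851 windows. The TGACG part was in that of Pcdh10 and in 17.8% of all windows. Neither TGACGTCA nor CCCNNGGG was in any of the 10, against 1.55% and 11.8% of all windows. A match is a description of letters and not of binding. The windows of Epha5 and Cntn4 with the motif are shown because they are the ones that hold it, and that of Kirrel2 as the partner of Epha5 in the pair with the smallest p. They are chr5:84417383-84417632 on the minus strand, chr6:106118692-106118941 on the plus strand and chr7:30457516-30457765 on the minus strand, with TAATTA in capitals, starting 230 bases before the start of Epha5 and 110 before that of Cntn4.
Epha5: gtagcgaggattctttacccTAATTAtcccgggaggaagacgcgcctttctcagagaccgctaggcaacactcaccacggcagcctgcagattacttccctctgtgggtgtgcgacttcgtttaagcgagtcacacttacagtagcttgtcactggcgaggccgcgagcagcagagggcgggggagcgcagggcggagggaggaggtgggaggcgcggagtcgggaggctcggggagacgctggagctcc
Cntn4: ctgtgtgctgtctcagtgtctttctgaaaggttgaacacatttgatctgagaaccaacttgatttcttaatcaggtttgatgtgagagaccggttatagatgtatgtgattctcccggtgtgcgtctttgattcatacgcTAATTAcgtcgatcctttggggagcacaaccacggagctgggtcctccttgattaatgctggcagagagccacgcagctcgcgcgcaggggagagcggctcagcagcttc
Kirrel2: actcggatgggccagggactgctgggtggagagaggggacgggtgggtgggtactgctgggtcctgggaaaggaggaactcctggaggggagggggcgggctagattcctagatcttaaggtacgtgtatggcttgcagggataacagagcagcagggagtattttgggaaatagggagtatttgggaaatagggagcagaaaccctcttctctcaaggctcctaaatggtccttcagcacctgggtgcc

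The genes most like each member over arrays, by r after centring within genotype, are given without a test, as they were picked from 28151 probe sets for this measure. Their r lay between 0.88 and 0.97. Kirrel2 was followed by the kinase gene Snrk (0.95), the endosomal gene Ankfy1 (0.94) and the histone deacetylase gene Hdac5 (0.94). Their r within each genotype was 0.92 or more, which adds no separate support, as they were picked on the same values. Kirrel3 was followed by Dmtn, which encodes an actin-binding protein (0.95), the homeobox gene Sebox (0.92) and Xkr8 (0.92). Epha5 was followed by the cytokine receptor gene Lifr, Prex2 and the transcription factor gene Nfat5. Efna3 was followed by Pmp2, Cln3 and the glycolytic gene Aldoc, and Efna5 by Ggcx, Mir153 and Baiap2l1. Without centring, Pmp2 correlated with Efna3 at 0.26 over the 12 arrays. The mean signals of Sebox (6.03), Pmp2 (5.92) and Mir153 (5.5) were not far above the level of 5 required for testing. Pcdh10 was followed by the homeobox gene Meis1 (0.89), Got1 (0.89) and Lgalsl, and Sema7a by Lpin1, Rap1gap2 and Matn4. Cntn4 was followed by the proteasome subunit gene Psmd7 (0.97), Strbp (0.97) and Zbtb2 (0.96), and Ncam2 by Spag7, Lnpk and Smap1.

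The relation of each gene to the marker lists was read across the 12 arrays as well, in 72 relations, after subtracting the array mean. In 4 the permutation p was under 0.05 and in 0 after adjustment. Epha5 went with the sustentacular list (r = 0.74, permutation p = 0.00267, adjusted p = 0.192; rho = 0.68, permutation p = 0.019, adjusted p = 0.617), which held Cyp2g1 among 10 probe sets, and r was 0.59 without the 2 most distant arrays. Cntn4 went with the same list (r = 0.62, permutation p = 0.032, adjusted p = 0.515; rho = 0.59, permutation p = 0.045, adjusted p = 0.617), and r was 0.37 without 2 arrays. Ncam2 (r = 0.74, permutation p = 0.00706, adjusted p = 0.228; rho = 0.65, permutation p = 0.0262, adjusted p = 0.617) and Pcdh10 (r = 0.72, permutation p = 0.00948, adjusted p = 0.228; rho = 0.62, permutation p = 0.0372, adjusted p = 0.617) went with the progenitor list. Without the 2 arrays farthest from that list's median, r was 0.70 for Ncam2 and 0.35 for Pcdh10. Kirrel2 correlated with the mature neuron list at 0.53 (permutation p = 0.0791, adjusted p = 0.515) with a rho of 0.41 (permutation p = 0.186, adjusted p = 0.688).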

How the data were processed

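Whole MOE RNA from H2be-KO and WT mice was measured on 12 Affymetrix Mouse Gene 1.0 ST arrays. The authors checked arrays with arrayQualityMetrics for outliers, then ran IterPLIER with sketch-quantile normalization in Affymetrix Expression Console, and deposited the resulting log2 signals. Their versions and the annotation build are not named in the labels or methods. Quantile normalization removes a change shared by most transcripts. The number of arrays limits the precision.

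Titles gave the genotype and replicate. Of 35556 probe sets, 6612 controls were left out by their identifiers, which precede those of the gene probe sets. Of the rest, 21789 had 1 gene symbol, 1621 several and 5534 none, and symbols were updated through the Entrez identifier. The 28151 with a mean log2 signal above 5 were fitted with limma 3.58.1 in R 4.3.3 (genotype as the only term, eBayes, Benjamini-Hochberg over all). Exact permutation tests used all 924 choices of 6 of 12 arrays, and correlations 100000 resamples. All tests were two-sided. The script was tested on simulated data. Arrays were separate biological samples, each pooled from a pair of animals, per the methods.

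The 9 genes, the families and the marker lists were chosen with earlier results of these data known. Named were all 9 genes, family genes with a limma p under 0.05 (up to 4 per list), and for each gene the 3 probe sets of 1 named gene with the highest correlation after centring within genotype. Provisional Gm and Rik names, pseudogenes and the other 8 genes were left out. Other genes with values (Kirrel, Efnb1, Cntn1, Plxnc1, Ncam1, Nrp1, Sema3a, Krt5, Krt14, Krt15, Trp63, Cyp2g1, Amelx, Xist and the called marker genes) were chosen after their values were seen, as were the motifs and the relations to marker lists. Alternatives covered the filter, a floor, normalization, a block, covariates, array weights, moderation, averaging and each array left out.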

Additional observations from a re-analysis of the deposited data

Results flagged for a closer look

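In 22 groups of 6 arrays (9 genes and 2 log ratios in each genotype), 1 held an array that stood far from the others, where chance gives about 1 in 20. Ncam2 read 10.56 in WT replicate 6, and the nearest WT array read 10.17. The gap was 0.708 of the group's whole range, above Dixon's 95% critical value. Without that array the Ncam2 difference between genotypes was 0.18 (limma adjusted p = 0.452), against 0.10 with it.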

How the results depend on the processing

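The number of the 9 genes called higher was 0 in every alternative run. The number called lower was 1 in the reported fit (Kirrel3). It was 0 with log2 above 5 in every array, with values under 5 raised to 5, with the Y-linked mean as covariate, with trend and robust moderation and without the Amelx-high arrays, and 2 after quantile normalization, with array weights and by the exact permutation test. It ranged from 0 to 1 with each array left out. Signs turned for Kirrel2 with array weights (0.051) and, with an array left out, within a range of -0.139 to 0.065. They turned for Efna5 with array weights (0.011), without the Amelx-high arrays (0.001) and within -0.099 to 0.004 with an array left out. The other genes kept their sign, and the log ratios stayed positive and uncalled, at 0.039 to 0.265 for Kirrel2 to Kirrel3 and 0.1 to 0.199 for Epha5 to Efna5 with an array left out. Other family genes held 1 higher and 1 lower call, and 2 and 5 with array weights (0 to 2 and 0 to 4 with an array left out). Marker genes held 4 and 1. Higher calls were 1 after quantile normalization, 1 after median centring, 1 without the Amelx-high arrays and 7 with the replicate block. Lower calls were 3 with the block, 3 with array weights and 0 without the Amelx-high arrays (0 to 6 and 0 to 3 with an array left out). Over all probe sets, 1065 higher and 498 lower calls became 513 to 2265 and 312 to 1554 with an array left out, 2694 and 1405 with array weights, 2042 and 1214 with the first residual component, 2039 and 951 with the block and 627 and 381 averaged by symbol.

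Of 36 pairs, 8 had an unadjusted p under 0.05, but 5 with the first component of all probe sets regressed out and 3 with the replicate block (6 to 12 with an array left out). Pairs past the adjusted threshold were 0, but 3 with values centred within genotype and 7 with the Y-linked mean regressed out. They were 5 without WT replicate 4 and 0 without any other array (0 to 5). Under the block, with values centred within genotype and number, r for Pcdh10 and Ncam2 turned to -0.09. For the replicate block, which pairs the numbers, the Kirrel3 difference of -0.173 had a limma p of 0.0394, and the log ratios had p of 0.375 and 0.125 by exact sign choices. The block changed no call among the 9 genes. Same-numbered arrays of both genotypes correlated in their deviations from the group mean at 0.0251 to 0.592, not above 0.1 in every number, so the numbers were not treated as pairs. Of the 6 numbers, 4 H2be-KO arrays correlated best with the WT array of their own number, and Xist split replicates 1 to 3 from 4 to 6 in both genotypes. The permutation p of the pairs over 12 arrays takes the arrays as exchangeable, which these values do not establish. The cause of the changes between alternatives was not tested. The deposited values give no background level, so how far each signal lies above it is unknown.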
